A study of Mus musculus with 6 samples.

Results

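The myeloid receptor genes Lilrb4a, Lilrb4b, Pirb, Cd300a, Sirpa, Fcgr1, Fcgr2b, Fcgr3, Fcgr4 and Fcer1g were described in the cerebral cortex of young adult and old mice. They were taken by symbol from the 55421 genes of the deposited tables, and all 10 of 10 were found. The list was selected on symbols and with no threshold, but with the difference between 24 and 6 months in these same libraries known, so the age values of the receptors are given below as a description without a test. The study compared the transcriptome of the cortex at 6 months (mice 10, 11 and 17) and at 24 months (mice 2, 4 and 5), with 1 library per mouse and 3 mice per age. All 6 mice were C57BL/6J males of the genotype WT, fed the same diet and killed under isoflurane, and each cortex was powdered frozen before RNA was extracted. The samples are therefore bulk tissue, in which fewer cells of a type and less RNA per cell cannot be told apart.

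Microglia, the resident macrophages of the brain, carry paired sets of receptors that either start or restrain their activation. Activating Fc receptors bind antibody and signal through the common gamma chain, encoded by Fcer1g, whose activation motif (ITAM) recruits the kinase Syk. Inhibitory receptors such as the product of Fcgr2b carry an inhibitory motif (ITIM) in their own tail, which recruits phosphatases such as those encoded by Ptpn6 and Inpp5d and dampens the signal. PIR-B (Pirb) and gp49B (Lilrb4a) are inhibitory receptors related to the human LILRB family, CD300a binds lipids exposed on dying cells, and SIRP-alpha (Sirpa) binds CD47, the signal that protects cells from being engulfed. Sirpa is also known to be abundant in neurons.

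Lilrb4a and Lilrb4b are paralogues that lie in a row on chromosome 10 of GRCm38, with 4252 bases between them. Lilrb4a (ENSMUSG00000112148.1) was annotated on the plus strand at chr10:51490956-51496611 and Lilrb4b (ENSMUSG00000112023.1) at chr10:51480632-51486703. The latter is named Lilr4b in the GENCODE vM21 annotation and is known as gp49A, a receptor without an ITIM. Their coding sequences matched at 871 of 907 aligned positions (96.0%), and the longest identical run was 126 bases, which is longer than the 75-base reads. To show how a read can be told apart, the coding stretch in which they differed most is given for both, with the differing bases in capitals. It covers coding bases 200 to 268 of each, at chr10:51491563-51491631 in Lilrb4a and at chr10:51481269-51481337 in Lilrb4b, and holds 9 differences in 69 bases.
Lilrb4a: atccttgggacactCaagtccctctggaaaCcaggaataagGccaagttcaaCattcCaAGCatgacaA
Lilrb4b: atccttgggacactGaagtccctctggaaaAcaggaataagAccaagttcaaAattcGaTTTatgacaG

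Of the 69-base windows of the Lilrb4a transcripts, 41.8% (2489 of 5961) also occurred in transcripts of another gene, against 17.0% for Lilrb4b. Of the shared windows of Lilrb4a, 1096 were shared with Lilrb4b and 1941 with Gm49339, a gene model on the same strand that holds 96.0% of the bases of the transcript Lilrb4a-201. Gm49339 had 0 counts in all 6 libraries, so the count of Lilrb4a is that of the reads which the counting did give to it, and how reads on bases shared by both models were treated was not tested. The counting options named by the study divide a read with several positions into fractions, yet only whole counts were deposited. They also leave out reads with a mapping quality under 15. Whether reads that fit Lilrb4a, Lilrb4b or Pirb and a relative were left out in this way was not tested. For Pirb (ENSMUSG00000058818.13, chr7:3711409-3720391, minus strand) 28.1% of windows were shared, mainly with Gm14548 and Pira2, a member of the activating PIR-A family.

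Fcgr2b, Fcgr3, Fcgr4 and Fcer1g form a cluster within 275749 bases of chromosome 1. Fcgr2b (ENSMUSG00000026656.15, chr1:170958617-170976547, minus strand) and Fcgr3 (ENSMUSG00000059498.13, chr1:171051174-171064935, minus strand) encode the inhibitory and an activating low-affinity receptor for IgG. Their coding sequences matched at 671 of 781 aligned positions (85.9%). Fcgr3 shared 6.29% of its windows, all of them with Fcgr2b. Fcgr2b shared 5.70% of its own (328 of 5750), of which 109 were shared with Fcgr3, 117 with Cplx2 and 116 with Gm47409. The stretch in which the pair differed most, 8 of 69 bases within a coding exon, is printed with the differing bases in capitals, from chr1:170968161-170968229 for Fcgr2b and chr1:171057872-171057940 for Fcgr3, both on the minus strand.
Fcgr2b: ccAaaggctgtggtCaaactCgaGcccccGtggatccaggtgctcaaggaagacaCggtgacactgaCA
Fcgr3: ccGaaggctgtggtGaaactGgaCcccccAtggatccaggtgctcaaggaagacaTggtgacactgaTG

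Fcgr4 (ENSMUSG00000059089.4, chr1:171018920-171029761, plus strand), Fcer1g (ENSMUSG00000058715.11, chr1:171229572-171234365, minus strand), Fcgr1 (ENSMUSG00000015947.10, chr3:96282909-96293969, minus strand) and Sirpa (ENSMUSG00000037902.18, chr2:129592835-129632228, plus strand) shared 0 windows with other genes. Cd300a (ENSMUSG00000034652.12, chr11:114890041-114904654, plus strand) shared 2.04%.

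Promoter windows of RefSeq (GRCm38.p6, 300 bases, of which 250 lie before the start) were matched for 8 of the 10 receptor genes, and those of Lilrb4a and Sirpa were missing. The motif GAGGAAG, a core of the sites bound by PU.1, the main transcription factor of myeloid cells, was searched on both strands. It occurred in 5 of the 8 (Pirb, Fcgr1, Fcgr3, Fcgr4 and Cd300a), against 15.4% of all 27025 genes with a window. The windows of Lilrb4b, Fcgr2b and Fcer1g did not hold these letters. The sequence just before the start is printed for the 5 genes in the direction of transcription, with the motif or its reverse complement CTTCCTC in capitals, since the motif is a feature they share that played no part in their choice. The windows lie at chr7:3720383-3720507, chr3:96293970-96294094, chr1:171059404-171059528 and chr1:171018801-171018925 for Pirb, Fcgr1, Fcgr3 and Fcgr4, and at chr11:114889916-114890040 for Cd300a. Those of Pirb, Fcgr1 and Fcgr3 are on the minus strand and those of Fcgr4 and Cd300a on the plus strand.
Pirb: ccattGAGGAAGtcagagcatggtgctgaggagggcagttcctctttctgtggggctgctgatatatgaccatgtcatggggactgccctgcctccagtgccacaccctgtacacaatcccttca
Fcgr1: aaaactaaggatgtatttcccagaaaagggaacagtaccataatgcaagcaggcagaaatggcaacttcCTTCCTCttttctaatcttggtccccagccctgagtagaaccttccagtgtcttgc
Fcgr3: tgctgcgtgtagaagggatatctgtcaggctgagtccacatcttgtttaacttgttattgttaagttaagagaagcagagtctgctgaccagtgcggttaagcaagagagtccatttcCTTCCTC
Fcgr4: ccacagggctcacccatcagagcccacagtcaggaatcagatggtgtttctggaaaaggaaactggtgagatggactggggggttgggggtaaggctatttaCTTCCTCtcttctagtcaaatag
Cd300a: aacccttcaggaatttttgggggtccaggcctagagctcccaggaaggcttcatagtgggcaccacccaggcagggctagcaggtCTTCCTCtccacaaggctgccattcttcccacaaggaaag

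The motif began 7 bases before the start in Fcgr3, 23 in Fcgr4, 40 in Cd300a, 56 in Fcgr1 and 120 in Pirb. Fcgr3 also had a window for a second start, not printed, before which the motif began at 16 bases. A match of letters does not show that the factor is bound there.

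The libraries held 33493082 to 36494240 counts in the young mice and 29495379 to 32813159 in the old mice, yet genes with at least 1 count numbered 33974 to 35651 at 6 months and 40208 to 43561 at 24 months. Genes that were silent at 6 months gave 0.0118 to 0.0144 CPM per exonic kb at 6 months and 0.0348 to 0.0742 at 24 months, highest in mouse 2. These genes were chosen in 2 young libraries and read in the third, so the choice did not use the young library that was read, but genes whose expression began with age would be read as background at 24 months. This background was multiplied by the exonic length of each receptor gene, and the resulting expected count is given beside the low receptors below. Fold changes are log2 values for 24 against 6 months from edgeR with TMM scaling. Over the 32905 genes tested their median was 0.15. It was -0.14 over the 15761 genes above 1 CPM and 0.89 over the 17144 genes at or below 1 CPM. Scaling by the library totals alone moved the median of all genes up by 0.19. Neuronal markers, with 9770 to 11370 summed CPM at 6 months and 7178 to 9668 at 24 months, and homeostatic microglial markers, with 506 to 573 over all ages, were both well detected.

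Sirpa, the receptor for CD47, had the highest level of the 10 genes, with 265, 286 and 307 TPM (a level corrected for gene length and library size) in the 6-month mice and 247, 248 and 261 TPM in the 24-month mice. All 3 old mice were below all 3 young mice. Its level was 399 ± 27.9 CPM at 6 months and 325 ± 10.1 CPM at 24 months (SD, n = 3 each), a log2 fold change of -0.30 ± 0.088 (SE). The size of this difference depended on the scaling. It was -0.11 with library totals, where the ages overlapped, -0.18 with edgeR's filterByExpr and -0.17 after the background was subtracted. Of the 10 neuronal markers 0 were fitted higher with TMM scaling, against 3 with library totals, and 2 fell at 10% FDR with TMM scaling (Tubb3 and Syt1, of which the latter encodes a calcium sensor of synaptic vesicles) and 0 with library totals. The part of neurons in the Sirpa difference was not tested.

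Fcgr2b, the inhibitory Fc receptor, had 2.56, 2.64 and 2.88 TPM at 6 months, behind which stood 131, 149 and 155 counts. At 24 months it had 4.04, 3.65 and 3.23 TPM, or 199, 192 and 167 counts. The ages did not overlap. The level was 4.43 ± 0.262 CPM at 6 months and 5.53 ± 0.613 CPM at 24 months, a log2 fold change of 0.32 ± 0.15. The expected background made up 1.75% to 2.04% of its counts at 6 months and 3.96% to 6.37% at 24 months, and after its subtraction the log2 fold change was 0.40 and the ages still did not overlap.

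Cd300a, an inhibitory receptor for lipids of dying cells, had 42, 70 and 66 counts in the young mice and 83, 106 and 80 in the old mice. These gave 1.00 to 1.51 TPM in the young mice and 2.06, 2.46 and 1.89 TPM in the old mice. All old mice lay above all young mice, and mouse 10 was the lowest of the 6. The log2 fold change was 0.56 ± 0.21, from 1.80 ± 0.381 to 2.66 ± 0.367 CPM. With the background subtracted, which was at most 12.5% of a count, it was 0.60, and the ages stayed apart.

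Pirb, a receptor for MHC class I molecules and for proteins of myelin, had 13, 16 and 13 counts in the young mice and 33, 21 and 16 in the old mice. In TPM these were 0.330, 0.367 and 0.313 in the young mice and 0.867, 0.517 and 0.400 in the old mice. The 3 young mice were close together, and the old mice were spread widely, with mouse 2 far above the others. The level was 0.427 ± 0.0336 CPM at 6 months and 0.698 ± 0.285 CPM at 24 months, a log2 fold change of 0.70 ± 0.35. It was 0.34 without mouse 2, the library with the highest background. Of its old counts 29.7% to 38.6% were expected from the background, against 13.6% to 16.8% of the young counts, and after subtraction the log2 fold change was 0.48 and the ages overlapped.

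Lilrb4a, the inhibitory member of the gp49 pair, had the lowest mean level of the 10 genes. Young mice had 3, 10 and 13 counts of it and old mice 9, 21 and 19, or 0.0651, 0.196 and 0.268 TPM against 0.202, 0.442 and 0.407 TPM. The ages overlapped, since the old mouse 2 lay below the young mouse 17. The log2 fold change was 0.86 ± 0.49, and it ran from 0.49 without the young mouse 10 to 1.28 without the young mouse 17. The expected background of 11.4 counts in mouse 2 exceeded the 9 counts found, and after subtraction the log2 fold change was 0.54.

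Lilrb4b, the gp49 member without an ITIM, was counted 2, 9 and 10 times in the young mice and 19, 31 and 20 times in the old mice. In TPM it had 0.0417, 0.170 and 0.198 in the young mice and 0.410, 0.627 and 0.411 in the old mice. All old mice lay above all young mice. It had the largest age difference of the 10 genes, from 0.210 ± 0.128 to 0.690 ± 0.179 CPM, a log2 fold change of 1.68 ± 0.45 that ran from 1.28 without mouse 10 to 2.03 without mouse 17. Counts of 11.9, 9.87 and 6.22 were expected from the background in the old mice 2, 4 and 5, and of 2.15, 2.86 and 2.66 in the young mice 10, 11 and 17. Taking them away left 7.10, 21.1 and 13.8 counts in the old mice and up to 7.34 in the young mice, so that the scaled levels overlapped while the log2 fold change stayed at 1.75. For both gp49 genes together, a sum that does not depend on how reads were split between the pair, 5, 19 and 23 counts stood against 28, 52 and 39. Of these, 23.3 were expected from the background in mouse 2, and subtraction left 4.65, 32.6 and 26.8 counts in the old mice and 0.787, 13.4 and 17.8 in the young mice, with overlap.

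Among the activating receptors, Fcgr3 was the most abundant, with 48.9, 46.5 and 54.8 TPM at 6 months and 60.2, 53.0 and 49.0 TPM at 24 months. The ages overlapped. On the CPM scale the means were 24.7 ± 2.13 and 24.67 ± 2.56, and the log2 fold change was -0.00 ± 0.12. Its sign turned with the scaling, to 0.19 with library totals and 0.13 after background subtraction.

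Fcgr1, the high-affinity receptor for IgG, had 56, 48 and 76 counts in the young mice and 92, 77 and 71 in the old mice. These were 2.45, 1.90 and 3.16 TPM against 4.17, 3.27 and 3.07 TPM. The lowest old mouse lay just under the highest young mouse, so the ages overlapped. The log2 fold change was 0.37 ± 0.23, with 0.24 without mouse 2 or mouse 11 and 0.57 without mouse 17.

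Fcgr4, a further activating receptor, rested on 3, 6 and 4 counts in the young mice and on 13, 6 and 7 in the old mice. Its TPM values were 0.271, 0.490 and 0.343 in the young mice and 1.22, 0.525 and 0.623 in the old mice. The ages were apart in TPM and overlapped in CPM after TMM scaling, and mouse 2 held as many counts as mice 4 and 5 together. The log2 fold change of 0.95 ± 0.51 was 0.52 without mouse 2. Of its old counts 20.5% to 38.0% were expected from the background, against 11.0% to 16.5% of the young counts. Subtraction left 3.72 to 10.3 counts in the old mice and 2.50 to 5.34 in the young mice, with overlap, and the log2 fold change was 0.94. The filter of filterByExpr removed this gene.

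Fcer1g, the signalling chain that the activating receptors share, had 42.3, 49.0 and 61.1 TPM at 6 months and 59.2, 48.2 and 51.7 TPM at 24 months. The young mice spanned the old ones. Its means were 12.6 ± 2.33 and 12.2 ± 1.29 CPM, a log2 fold change of -0.05 ± 0.16, whose sign was positive with library totals (0.14) and after background subtraction (0.08).

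**Figure D1:**
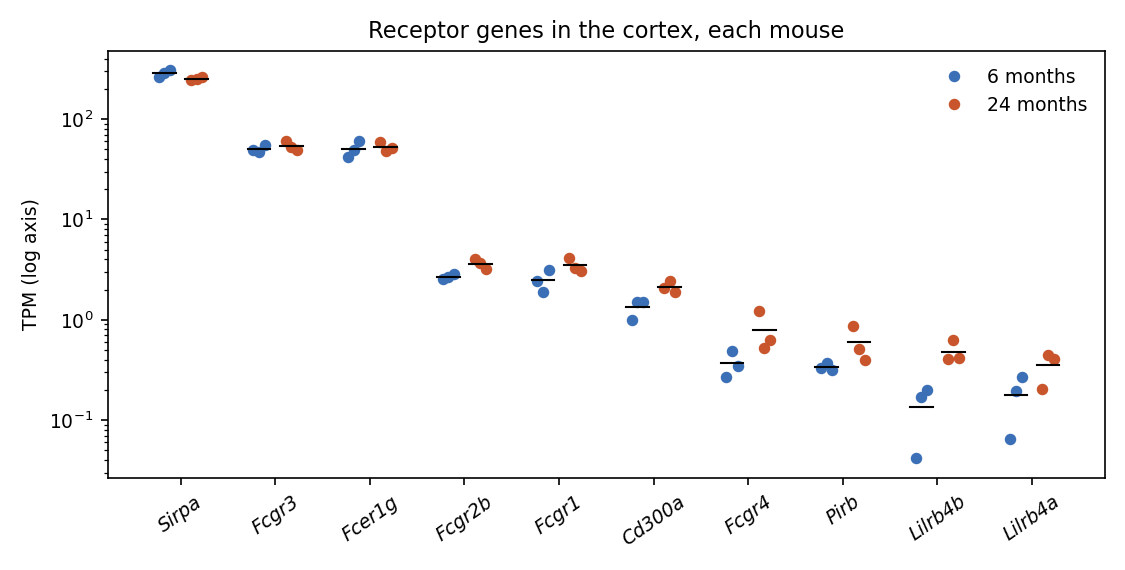
Level of each receptor gene in TPM on a log axis, with 1 point per mouse (blue, 6 months; orange, 24 months; 3 mice each) and a bar at the mean of each age. Sirpa stood near 269 TPM, Fcgr3 near 52.1, Fcer1g near 51.9 and the gp49 pair below 1. In TPM the old mice lay above the young ones, without overlap, for Fcgr2b, Cd300a, Fcgr4, Pirb and Lilrb4b, and below them for Sirpa.

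Averaged over the 6 mice, Sirpa ranked 573rd of the 55421 genes by TPM, Fcgr3 3510th, Fcer1g 3516th and Lilrb4a 29632nd. Sirpa had 5.16 times the level of Fcgr3, with no overlap between their ranges. Fcgr3 and Fcer1g, the receptor chain and its partner, did not differ beyond their spread. Their ratio of TPM lay between 0.897 and 1.16 in the 6 mice, and Fcgr3 was the higher in 3 of them. A wide step followed, with Fcer1g 16.4 times above Fcgr2b. Fcgr2b and Fcgr1 again lay within their spread (4 of 6 mice had more Fcgr2b). Cd300a, Fcgr4, Pirb, Lilrb4b and Lilrb4a followed, each with a range that overlapped that of its neighbour.

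**Figure D2:**
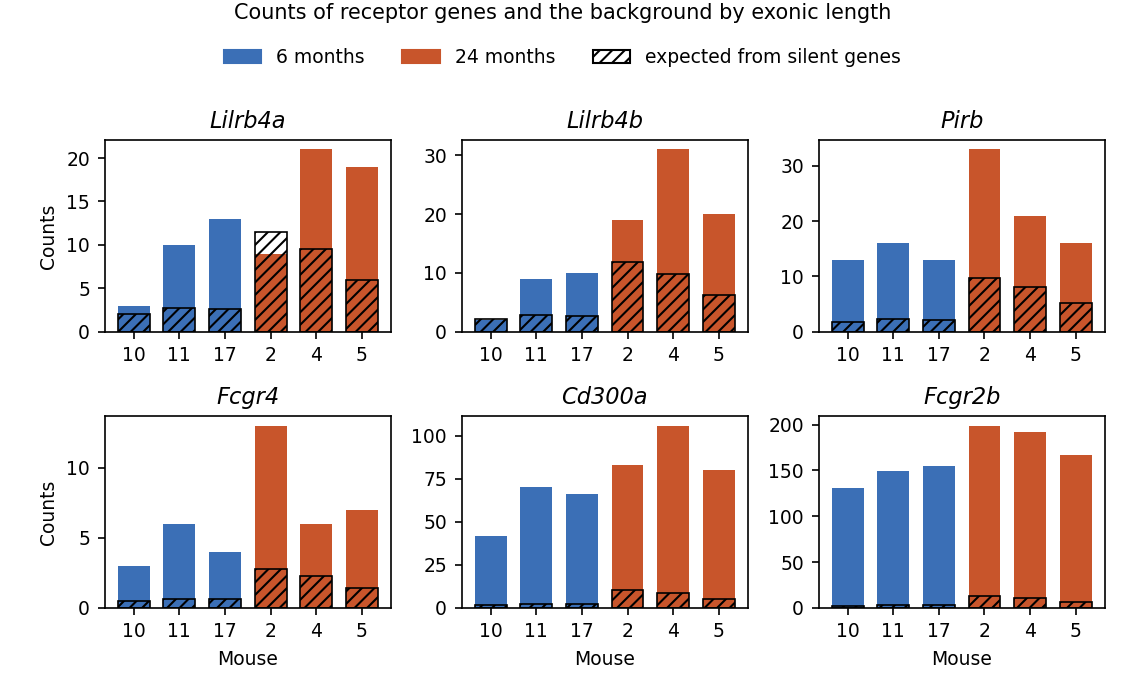
Counts of the 6 low to moderate receptor genes in each mouse (solid bars; blue, 6 months; orange, 24 months), with the count expected from silent genes of the same exonic length (hatched). For Lilrb4a the expected 11.4 counts of mouse 2 exceeded the 9 found, and for Fcgr2b the hatched share was at most 6.37%.

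The fit gave a higher level at 24 months for 7 of the 10 genes, beside 58.4% of all genes tested, and 9 were so after background subtraction, beside 54.7%. Ages that did not overlap, with the old mice above, were found for 4 of the 10 (Lilrb4b, Pirb, Fcgr2b and Cd300a), beside 20.0% of all genes tested. With the old mice below they were found for Sirpa, 1 of the 10, beside 16.3% of all genes. After background subtraction Fcgr2b and Cd300a were left above, beside 8.12% of all genes, and Sirpa below, beside 18.8%. At 10% FDR in edgeR's quasi-likelihood test, Lilrb4b was called higher, where 10.0% of all genes were, and Sirpa was called lower, where 8.33% of all genes were. These calls stem from the contrast in which the list was proposed, and nothing is read from them. Neither was called after background subtraction, where 37 of all 27417 genes tested were called higher and 4 lower. Nor was either called without mouse 10, mouse 11, mouse 2 or mouse 4. Of all genes tested, 0, 1, 72 and 0 were then called higher and 0, 0, 104 and 0 lower, in this order of mice. Sirpa was not called by the likelihood ratio or exact test either, with library totals, with another filter or without mouse 17. With library totals 3 genes were called higher (Lilrb4b, Fcgr2b and Cd300a) and 0 lower, where 12.5% and 0.966% of all genes were, so the split depended on the scaling. Cd300a was also called higher without mouse 5. At 1% FDR the likelihood ratio test called Lilrb4b higher, where 4.41% of all genes were, and 0 of the 10 lower, where 0.766% of all genes were. Of the 4 receptors under 1 CPM, Lilrb4a, Pirb and Fcgr4 stood at 0.86, 0.70 and 0.95 and Lilrb4b at 1.68, where the median of genes at or below 1 CPM was 0.89.

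**Figure D3:**
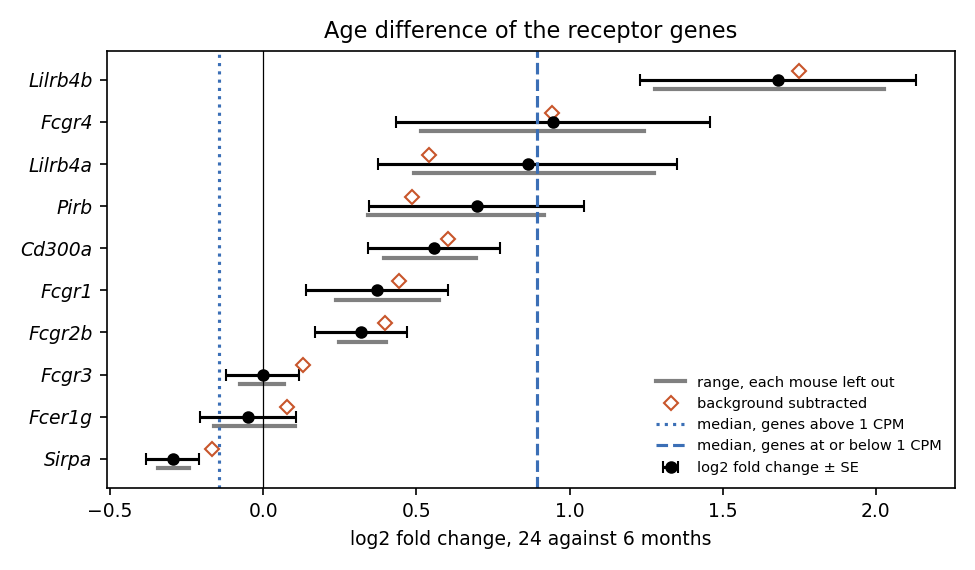
Log2 fold change of each receptor gene for 24 against 6 months (black points, bars for the SE, 3 mice per age), its range when each mouse is left out (grey) and its value after background subtraction (diamonds). Lilrb4b stood highest at 1.68 and Sirpa lowest at -0.30; the dotted and dashed lines mark the medians of genes above (-0.14) and at or below 1 CPM (0.89).

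The balance of the inhibitory and activating low-affinity Fc receptors is often read as the ratio of Fcgr2b to Fcgr3, in which library size and scaling cancel. On TPM it was 0.0524, 0.0568 and 0.0526 in the young mice and 0.0670, 0.0688 and 0.0658 in the old mice. All old mice lay above all young mice, and the spread within each age was small. The means were 0.0539 ± 0.00246 and 0.0672 ± 0.00150, a ratio of 1.25 between the ages that ranged from 1.23 to 1.28 when each mouse was left out and was 1.21 after background subtraction. The pair shares a stretch of sequence, as shown above, and a read that lies wholly within it matches both genes. Fcgr2b also shares windows with Cplx2 and Gm47409, and the part of such reads in the ratio was not tested.

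The inhibitory receptors other than Sirpa (Fcgr2b, Cd300a, Pirb and Lilrb4a) summed to 3.96, 4.72 and 4.96 TPM at 6 months and to 7.16, 7.07 and 5.92 TPM at 24 months. This was 1.48 times as much in the old mice, without overlap, and 1.38 times after background subtraction. The activating receptors Fcgr1, Fcgr3 and Fcgr4 summed to 52.9 ± 4.84 TPM at 6 months and 58.4 ± 6.57 TPM at 24 months, with overlap. These sums are on TPM, without the TMM scaling of the fold changes. Fcgr3, the largest part of the activating sum, differed by 0.11 on log2(TPM + 0.1), against -0.002 with TMM scaling. Fcgr2b, of the inhibitory sum, differed by 0.42 against 0.32. With Sirpa included, the inhibitory sum was 290.4 ± 21.5 TPM at 6 months and 259 ± 6.996 TPM at 24 months, 0.89 times as much, so the direction of the inhibitory sum was set by this 1 gene.

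**Figure D4:**
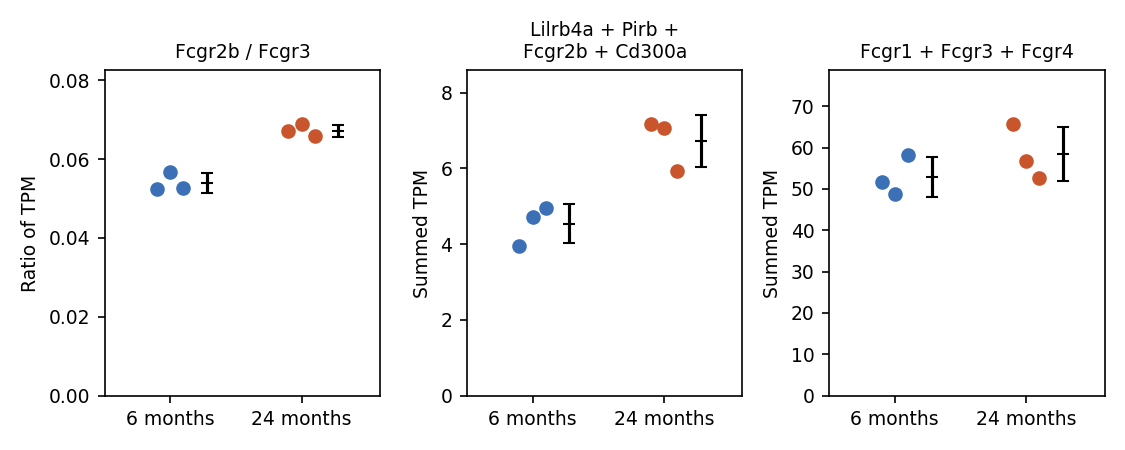
Ratio of Fcgr2b to Fcgr3 in TPM (left), summed TPM of the inhibitory receptors without Sirpa (middle) and of the activating Fc receptors (right), with 1 point per mouse and the mean ± SD of each age (3 mice). The ages are apart on the left (0.0524 to 0.0568 against 0.0658 to 0.0688) and in the middle, and overlap on the right.

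To set the receptors against the amount of microglial RNA, the mean log2 CPM of 12 homeostatic microglial genes was taken from the log2 CPM of each gene in each mouse. That mean was 5.00 at 6 months and 4.95 at 24 months. Relative to it, Cd300a was higher by 0.61 at 24 months, Lilrb4b by 1.64 and Fcgr4 by 0.74, each without overlap between the ages, which on this scale held for 20.8% of all genes tested. The gap was narrow for Fcgr4, between -7.09 in the young mouse 11 and -7.05 in the old mouse 4. Sirpa was lower by a difference of -0.25, without overlap, where 12.1% of all genes were lower in this way. Fcgr2b was at 0.36 with overlap, because mouse 17 at 6 months (-2.75) and mouse 5 at 24 months (-2.77) were side by side. Fcgr3 and Fcer1g differed from the microglial mean by nearly the same amount at both ages (0.04 and 0.01).

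Among 85 genes of the signalling, receptor, ligand and microglial lists with at least 1 CPM, the profile over the 6 mice that was nearest to that of Fcer1g was Tyrobp, the other ITAM adaptor of microglia. The root mean square difference of centred log2 CPM was 0.12, against a median of 0.26 over the 85 genes. Fcrls, a microglial Fc receptor-like gene, and the integrin gene Itgb3 followed at 0.15 each. For Lilrb4b the nearest were Fcrl1 (0.58), H2-K1 (0.62) and Btk (0.64), against a median of 0.95. List genes under 1 CPM, where Lilrb4b itself lay, were not compared.

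The signalling genes behind the receptors were described from fixed lists in edgeR's quasi-likelihood test with Benjamini-Hochberg adjustment over all genes, in which 0 of 32905 genes passed 1% FDR. At an unadjusted p under 0.05 there were 5780 higher and 4317 lower genes. The likelihood ratio test of edgeR called 1451 higher and 252 lower genes at 1% FDR, its exact test 933 and 189, and DESeq2 112 and 115. List counts are therefore given at 10% FDR, at which 10.0% of all genes tested were called higher and 8.33% lower.

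Of 15 effectors of the ITIM, such as the phosphatases Ptpn6 and Inpp5d, 1 rose and 0 fell, and the median log2 fold change was 0.23. The gene that rose was Fgr, a Src family kinase, with 7, 11 and 10 counts in the young mice and 19, 15 and 22 in the old mice (log2 fold change 0.95 ± 0.34, adjusted p = 0.0982). It was called neither by DESeq2 nor in edgeR with DESeq2 size factors or without a filter, and 8.46, 7.01 and 4.42 of the old counts were expected from the background. Of 24 genes of ITAM signalling, 0 rose and 1 fell, with 0 and 2 at an unadjusted p under 0.05 and a median of 0.12. This was Bcl10, an adaptor that leads from Card9 to NF-kappaB, from 20.8 ± 2.04 to 16.4 ± 0.690 CPM (log2 fold change -0.34 ± 0.12, adjusted p = 0.0903). It was called by neither the likelihood ratio test nor the exact test of edgeR, nor by DESeq2, at 10% FDR.

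Of 54 other paired and Fc receptors, 47 could be tested, and 9 rose and 0 fell at a median of 0.65. Over all genes tested 10.0% rose and 8.33% fell. The risers named here lay under 1 CPM, and the median of genes at or below 1 CPM was 0.89. Clec12a, an inhibitory lectin receptor that senses uric acid crystals, rose from 5, 5 and 4 counts to 17, 23 and 13 counts (log2 fold change 1.85 ± 0.40, adjusted p = 0.0519). Cd22, the inhibitory sialic acid receptor of B cells, rose from 7, 15 and 4 counts to 39, 23 and 23 counts (1.67 ± 0.45, adjusted p = 0.0617). Ms4a2, a chain of the high-affinity IgE receptor of mast cells, had 1 count in each young mouse and 13, 4 and 9 in the old mice, at least 2.83-fold higher than a floor of 3 counts per library (adjusted p = 0.0556). The background expected in the old mice was 6.16, 5.11 and 3.22 counts, so mouse 4 held fewer counts of Ms4a2 than this. Fcrla, an Fc receptor-like gene of B cells, had at most 2 counts in a young mouse and 5, 12 and 5 in the old mice, at least 2.35-fold higher (adjusted p = 0.0695). In the old mice the expected background was 12.1, 10.0 and 6.32 counts for Clec12a, 11.0, 9.15 and 5.76 for Cd22 and 3.82, 3.17 and 2.00 for Fcrla. Ms4a2 and Fcrla passed the filter of 10 summed counts only through the old mice, so their rise was partly fixed by the filter.

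Of 19 genes for ligands that were tested, 2 rose and 1 fell, at a median of 0.02. Both that rose encode MHC class I molecules, which PIR-B binds. H2-K1 went from 13.5 ± 2.59 to 19.9 ± 0.890 CPM (log2 fold change 0.55 ± 0.15, adjusted p = 0.0621) and H2-D1 from 70.7 ± 8.68 to 90.3 ± 5.35 CPM (0.35 ± 0.11, adjusted p = 0.0786). Cd200, which encodes a neuronal ligand that restrains microglia, fell from 211.8 ± 17.9 to 162 ± 19.8 CPM (-0.38 ± 0.11, adjusted p = 0.0692). The 12 rises and 2 falls in these 4 lists changed with the mice included, as did the calls over all genes tested. There were 0 rises without mouse 10, 11, 2 or 4, 3 without mouse 17 and 14 without mouse 5. Falls were 0 without mouse 10, 11, 2 or 4 as well, 1 without mouse 17 and 4 without mouse 5. Over all genes tested, 0, 1, 72 and 0 were called higher and 0, 0, 104 and 0 lower without mouse 10, 11, 2 and 4. Without mouse 17 these numbers were 1224 and 1252, and they were 4364 and 3634 without mouse 5. After background subtraction 0 rises and 0 falls were called in the 4 lists, where 37 of all 27417 genes tested were called higher and 4 lower. At an unadjusted p under 0.05, 11 of 42 other paired and Fc receptors were then higher, where 2170 of all 27417 genes tested were. So were 1 of 15 ITIM effectors, 2 of 24 genes of ITAM signalling and 2 of 17 ligand genes.

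Markers of the cells that could carry the receptors moved unevenly. The 12 homeostatic microglial genes had a median log2 fold change of -0.06, and 1 rose (Tmem119, 0.34 ± 0.10, adjusted p = 0.0684) and 1 fell (Csf1r, the receptor on whose signal microglia depend, -0.34 ± 0.097, adjusted p = 0.0646). Of 17 genes of activated microglia 2 rose and 0 fell, at a median of 0.10. Itgax, an integrin of activated microglia and dendritic cells, rose from 4, 5 and 5 counts to 15, 18 and 15 counts (1.71 ± 0.36, adjusted p = 0.0518), and Cd68, a lysosomal protein of phagocytes, rose by 0.35 ± 0.12 (adjusted p = 0.0929). In the old mice 10.5, 8.72 and 5.49 counts of Itgax were expected from the background. Of 11 genes of border macrophages 0 passed in either direction, where the likelihood ratio and exact tests called 1 each, DESeq2 called 0 and 1 was higher at an unadjusted p under 0.05. The median was 0.08 and the summed level 16.2 to 25.7 CPM at 6 months and 18.2 to 30.1 CPM at 24 months. The genes of highest level in this list were Pf4, a chemokine (-0.13 ± 0.34), and Cd209f, a lectin (0.33 ± 0.34).

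Genes of blood-borne immune cells, which also carry several of these receptors, were low, so their medians are to be set beside the 0.89 of genes at or below 1 CPM. Of 12 genes of monocytes and neutrophils 3 rose (Ccr2, Plac8 and Ly6c2), with a summed level of 13.1 to 14.9 CPM at 6 months and 12.7 to 18.8 CPM at 24 months. Ccr2, the chemokine receptor of monocytes, had 12, 21 and 22 counts in the young mice and 44, 53 and 30 in the old mice (1.16 ± 0.31, adjusted p = 0.0615). Plac8 and Ly6c2, both with at most 3 counts in a young mouse, were at least 3.11-fold and 1.84-fold higher than the floor, and the median of the list was 0.76. Against an expected background of 6.00, 4.97 and 3.13 counts, Ly6c2 had 6, 4 and 7 counts in the old mice. In the B cell list, whose cells carry Fcgr2b, 3 of 7 genes rose at a median of 1.23. Jchain, which links antibody molecules, rose from 10, 8 and 20 counts to 55, 76 and 29 counts (2.02 ± 0.43, adjusted p = 0.0518), and Ms4a1 (3.11 ± 0.52), a protein of the B cell surface, rose with the same adjusted p. Ms4a1 had 28, 23 and 14 counts in the old mice, with 13.5, 11.2 and 7.07 expected from the background. For Jchain 5.51, 4.57 and 2.88 were expected there. The sum of the list was 1.04 to 1.83 CPM at 6 months and 2.88 to 5.29 CPM at 24 months. Of 9 genes of T and NK cells 3 rose (Nkg7, Cd8a and Cd3g, of which the last encodes a chain of the T cell receptor complex) at a median of 1.45. The sum of the list was 1.99 to 3.18 CPM in the young mice and 3.29 to 5.27 CPM in the old mice. In the old mice Cd8a had 6, 14 and 4 counts, with 7.96, 6.60 and 4.16 expected from the background. Cd3g had 9, 16 and 7 with 7.15, 5.93 and 3.74 expected, and Nkg7 had 10, 20 and 4 with 2.00, 1.66 and 1.04 expected. The mast cell list, whose cells carry Fcer1g, had 4 of 6 genes that rose on few counts, beside 10.0% of all genes tested. They were Ms4a2, Mrgprb1, Tpsab1 and Cpa3, the last a protease of mast cell granules. Tpsab1 had 5, 5 and 4 counts in the old mice, with 2.39 to 4.58 expected from the background. Mrgprb1 had 13, 9 and 5 there, with 9.16, 7.60 and 4.78 expected. The median of the list was 2.18, and its sum was 0.290 to 0.366 CPM at 6 months and 0.911 to 1.70 CPM at 24 months. In each of these 4 lists no gene was at 0 in all 6 libraries, 0 genes fell, and the part of these cells in the receptor values was not tested. Genes with few young counts, such as Ly6c2, Nkg7, Cd8a, Ms4a2, Mrgprb1 and Tpsab1, passed the filter of 10 summed counts only through the old mice. Their rise was therefore partly fixed by the filter. With filterByExpr 1 gene of the T and NK cell list was tested, and 0 were called.

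Of the other brain cells, 0 of 10 neuronal genes were fitted higher, and their median was -0.23. With library totals 3 of the 10 were fitted higher, the median was -0.04 and 0 were called. Tubb3 fell from 275 ± 11.5 to 215 ± 2.61 CPM (-0.36 ± 0.082, adjusted p = 0.0546) and Syt1 from 2165 ± 168 to 1645 ± 218 CPM (-0.40 ± 0.11, adjusted p = 0.0652). Of 8 astrocyte genes, with a median of -0.02, Gfap rose (0.69 ± 0.21, adjusted p = 0.0738). Of 5 genes of red blood cells, with a median of -0.36, Hbb-bt fell (-0.64 ± 0.21, adjusted p = 0.0879). Of 8 endothelial and 8 oligodendrocyte genes 0 passed by edgeR's quasi-likelihood, likelihood ratio or exact test or by DESeq2, and 0 had an unadjusted p under 0.05. Their medians were -0.04 and -0.12, with Cldn5 (0.12 ± 0.22) and Slco1a4 (-0.17 ± 0.25) the endothelial genes of highest level. Mbp, a myelin protein of the oligodendrocyte list, was at -0.08 ± 0.35. With library totals the medians of the endothelial, oligodendrocyte, astrocyte and homeostatic microglial lists were above 0 (0.15, 0.06, 0.17 and 0.13), so their signs depended on the scaling. The summed level of the oligodendrocyte genes was 1293 CPM in the old mouse 2 and 3140 and 4169 CPM in the old mice 4 and 5, against 2442 to 3831 CPM at 6 months. The 17 rises and 4 falls over all marker lists became 0 without mouse 10, 11, 2 or 4 and 0 after background subtraction. Without mouse 17 they were 9 and 2, and without mouse 5 they were 19 and 12. Over all genes tested, 0, 1, 72 and 0 were called higher and 0, 0, 104 and 0 lower without mouse 10, 11, 2 and 4. After background subtraction 37 of all 27417 genes tested were called higher and 4 lower.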

How the data were processed

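RNA was measured in the cortex of 6 mice, 3 per age, from 10 ng of total RNA per library. The authors trimmed the single-end 75-base reads (Trim Galore 0.6.4), mapped them to GRCm38 with STAR 2.7.3a and counted them on exons with featureCounts of Subread 2.0.0 (mapping quality of at least 15). They deposited whole-number counts and TPM values per gene, the latter computed by the authors from counts and exonic lengths. Counting was not stated to use strand, so antisense reads could not be told apart.

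The counts were scaled by TMM and tested with edgeR 4.0.16 (R 4.3.3), by the quasi-likelihood test without covariates and Benjamini-Hochberg adjustment, on genes whose counts summed to 10 or more. All 10 receptor genes passed this filter. The study's threshold was 1% FDR, and 10% was added. TPM served for levels between genes, sums and ratios. Tried as alternatives were DESeq2 1.42.0, its size factors, library totals, filterByExpr, no filter, the likelihood ratio and exact tests, log2(TPM + 0.1), background subtraction and each mouse left out. Silent genes had over 500 exonic bases and no more than 2 counts in each of 2 young libraries, and were read in the third young library and the old ones. The test script was checked on simulated counts, and all reported values come from the deposited counts. The members, lists and the 10% threshold were chosen with earlier results of these data known. All members were named. In each list the genes to be named were up to 4 of smallest adjusted p past 10% FDR, or the 2 of highest TPM where none passed. Some of them are not reported here. Exonic positions and transcripts were those of GENCODE vM21, which held 54673 of the 55421 identifiers, and sequences of promoters those of RefSeq. Windows of 69 bases are a read less 3 bases clipped at each end. At these depths, low receptors rest on few counts, and 3 counts was the floor for folds. Beyond the opening nothing more is given here on the mice, and each library is a separate animal. The p-values set the age difference against the spread between mice of the same age. Age cannot be told apart from the higher background of the old libraries.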

Additional observations from a re-analysis of the deposited data

How the results depend on the processing

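No paired analysis was possible because the mice of the ages share no replicate number. The number of genes called higher at 10% FDR, 3299, was 1108 with filterByExpr, 5302 with the likelihood ratio test, 1340 with DESeq2 and 37 after background subtraction. The number called lower, 2741, was 318 with library totals, 430 with filterByExpr, 1377 without a filter, 1708 with DESeq2 and 4 after background subtraction. With each mouse left out these numbers ran from 0 to 4364 and from 0 to 3634. The 12 rises in the signalling, receptor and ligand lists were 7 with filterByExpr, 5 with DESeq2 and 0 after background subtraction (0 to 14 with each mouse left out). The 2 falls were 1 with DESeq2 size factors, without a filter and with the likelihood ratio or exact test, and 0 with library totals, filterByExpr, DESeq2 and background subtraction (0 to 4 with each mouse left out). The 17 rises of the marker lists were 7 with filterByExpr, 10 with DESeq2 and 0 after background subtraction (0 to 19), and their 4 falls were 0 with library totals, filterByExpr and background subtraction and 2 without a filter (0 to 12). Filters differ in the genes they test. DESeq2 gave no adjusted p to 5745 of the 32905 genes, so these could not be called by it. Among them were 3 genes of the mast cell list, 2 of T and NK cells and 2 other paired and Fc receptors. For the other settings the cause was not tested.

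The number of receptor genes fitted higher (7) was 7 to 9 in every alternative tried. Receptor genes whose old mice all lay above the young (4) were 2 after background subtraction, 5 with library totals and 4 to 5 with each mouse left out, and the 1 below was 0 with library totals and 1 with each mouse left out. Relative to microglial genes, 3 were above with all mice, 6 without mouse 17 or mouse 5, and at least 2 otherwise, and 1 was below throughout. With each mouse left out, the ratio of ages was 0.86 to 0.92 for the inhibitory sum, 1.39 to 1.56 without Sirpa, 1.03 to 1.16 for the activating receptors, 0.96 to 1.16 for Fcer1g and 1.23 to 1.28 for Fcgr2b over Fcgr3. Fcgr3 and Fcer1g, both near 0, were the receptor genes whose sign differed between settings. Depth limits Lilrb4a, Lilrb4b, Pirb and Fcgr4, with at most 33 counts in a library.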
